A study of Mus musculus with 24 samples.

Results

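Acetylated lysine 27 of histone H3 (H3K27ac) was mapped by chromatin immunoprecipitation and sequencing (ChIP-seq) in mouse embryonic stem cells, and the regions described here carried a peak of this mark in both libraries from mitotic cells and in neither library from asynchronous cells. The peaks of all 4 H3K27ac lists were joined wherever they shared at least 1 bp, which gave 60680 regions, and 5781 of them, 9.53%, met that rule. They are called mitotic-only regions below. Against them stand 14962 kept regions, with a peak in both lists of each state, and 12803 asynchronous-only regions, with a peak in both asynchronous lists and in neither mitotic one. The other 27134 regions were seen in 1 list of a state or in some other combination. The regions were chosen by the presence of peaks in these 4 lists, so their presence, width and height there are given as a description without a test.

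The stem cells of all libraries were V6.5 cells, a line of a C57BL/6-129 strain background. They were grown on irradiated feeder cells with LIF and serum and then expanded on gelatin with 2i, a pair of kinase inhibitors. Mitotic cells had received nocodazole, a drug that stops spindle assembly, at 100 ug/ml for 7 h per the labels, and were collected by shaking them off the plate, whereas asynchronous cells received none. Both states were fixed in 1% formaldehyde for 10 min and sequenced as single reads of 50 nt. Of 24 samples, 17 had a peak list: H3K27ac in 2 mitotic and 2 asynchronous samples, and the transcription factors Klf4 in 3 mitotic and 3 asynchronous samples, Oct4 in 2 mitotic and 1 asynchronous, and Sox2 in 2 mitotic and 1 asynchronous, beside 1 Klf4 list from a mix of 10% stem cells with neural progenitors. The question was which regulatory elements stay marked or bound while cells divide. All stem cells were of a single line, and nothing in the labels says that replicates came from separate cultures. The p-values thus measure the spread between these libraries, which may be technical.

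H3K27ac is laid down by the acetyltransferases Crebbp and Ep300 and lies on active promoters and enhancers. During mitosis chromosomes condense, transcription largely stops and many factors leave chromatin, while part of the mark stays, a retention often called mitotic bookmarking. Klf4, Oct4 and Sox2 are core factors of pluripotency that bind enhancers and promoters of stem cell genes.

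The mitotic H3K27ac lists held 36526 and 30771 peaks, and the asynchronous lists held 47475 and 46491. Mitotic-only regions took 6261 peaks of mitotic list 1 and 6129 of mitotic list 2, or 17.1% and 19.9% of their peaks. They made up 26.7% of the 21652 regions that were in both mitotic lists. No list held a peak with a −log10 p under 5.00, so a region without an asynchronous peak may still have held signal below that limit. Read depth is unknown, since the lists hold peaks and no read totals. Both mitotic H3K27ac libraries carried the code EC-DG-3514 in their titles and both asynchronous ones EC-DG-3458, so cell state and whatever the code stands for cannot be told apart in the choice of these regions. Within H3K27ac and within Klf4, chromosome 8 took a larger part of the lists with the mitotic code than of the other lists, with values given at the end beside results without that chromosome.

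The members of the group with a gene start inside them are the ones whose sequence could be read, and 5 are shown because they span the range found: a CpG-rich start (Sh3rf3), starts with Klf4 peaks (Ddit4l and Efnb2), a germ layer regulator (Mesp2) and a CpG-poor start (Slc22a14). Each line gives the 250 bases before the gene start, 5′ to 3′ on the strand of the gene, from RefSeq on GRCm38.p6, the build that mm10 names. Capitals mark the motifs searched on both strands as exact letters. They were the GC box as GGGCGG, a Klf-like motif as GGGTGG, the octamer as ATGCAAA, a Sox-like motif as ACAATGG, the NF-Y motif as CCAAT and the TATA box as TATAAA. The E-box was searched as CACGTG, the CRE as TGACGTC, the Ets motif as CCGGAAG and the CHR element as TTTGAA.
Sh3rf3, chr10:58813109-58813358, plus strand: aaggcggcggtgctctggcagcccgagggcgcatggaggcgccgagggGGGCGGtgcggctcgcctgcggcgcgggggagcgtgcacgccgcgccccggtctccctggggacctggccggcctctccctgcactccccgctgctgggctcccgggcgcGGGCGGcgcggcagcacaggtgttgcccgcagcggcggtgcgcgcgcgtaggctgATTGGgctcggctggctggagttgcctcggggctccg
Ddit4l, chr3:137623422-137623671, plus strand: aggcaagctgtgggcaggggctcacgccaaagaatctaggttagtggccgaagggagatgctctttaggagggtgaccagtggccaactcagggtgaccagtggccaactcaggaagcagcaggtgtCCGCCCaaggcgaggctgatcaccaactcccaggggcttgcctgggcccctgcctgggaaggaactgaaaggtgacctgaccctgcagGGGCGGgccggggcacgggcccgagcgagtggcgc
Efnb2, chr8:8661243-8661492, minus strand: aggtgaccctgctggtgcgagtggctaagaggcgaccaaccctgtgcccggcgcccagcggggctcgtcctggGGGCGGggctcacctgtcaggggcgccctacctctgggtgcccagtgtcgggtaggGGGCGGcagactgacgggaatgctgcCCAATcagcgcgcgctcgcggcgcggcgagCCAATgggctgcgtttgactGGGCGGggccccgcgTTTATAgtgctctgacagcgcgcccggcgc
Mesp2, chr7:79810477-79810726, plus strand: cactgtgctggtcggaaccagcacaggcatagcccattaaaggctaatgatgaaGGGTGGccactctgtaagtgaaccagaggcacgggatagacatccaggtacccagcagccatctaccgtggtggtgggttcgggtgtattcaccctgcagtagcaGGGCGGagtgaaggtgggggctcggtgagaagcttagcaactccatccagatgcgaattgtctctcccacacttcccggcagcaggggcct
Slc22a14, chr9:119190396-119190645, minus strand: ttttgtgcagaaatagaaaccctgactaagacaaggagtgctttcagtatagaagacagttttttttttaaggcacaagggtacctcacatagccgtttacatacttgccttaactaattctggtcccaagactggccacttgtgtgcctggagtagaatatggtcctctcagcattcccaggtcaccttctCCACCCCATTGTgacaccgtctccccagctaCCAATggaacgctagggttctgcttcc
These stretches held 35 CpG dinucleotides at Sh3rf3, 10 at Ddit4l, 27 at Efnb2, 8 at Mesp2 and 3 at Slc22a14.

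Mitotic-only regions held 142 of the 32851 gene starts in the RefSeq table, from 134 genes of which 73 code for protein, while kept regions held 8513 starts and asynchronous-only regions 1218. Their starts held fewer CpG than those in kept or asynchronous-only regions and lay near the level of all starts. The 250 bases before a start held a median of 5 CpG (quartiles 3 and 9) in mitotic-only regions, 18 in kept regions, 14 in asynchronous-only regions and 6 (quartiles 2 and 16) over all starts. A GC box, the motif of Sp and Klf proteins at CpG-rich promoters, was in 26.8% of the starts in mitotic-only regions, against 61.8% in kept regions, 56.2% in asynchronous-only regions and 32.7% of all starts. TATAAA was in 14.1%, against 5.19%, 5.75% and 12.4% in the same order. The Ets motif was in 4.23%, against 17.3%, 8.54% and 6.91%. GGGTGG, close to the letters that Klf factors recognise, was in 40.1%, against 31.7%, 38.1% and 28.1%. CCAAT hardly differed, at 32.4%, against 34.0%, 33.1% and 33.8%, and the octamer that Oct4 reads was in 4.93%, against 2.80%, 3.45% and 4.12%. The Sox-like letters were in 3.52%, against 1.41%, 2.30% and 3.02%, which is 5 of the 142 starts. The E-box was in 7.04%, against 9.46%, 7.31% and 6.02%, the CRE in 1.41%, against 5.64%, 2.71% and 2.78%, and the CHR element, a letter run known from promoters of cell cycle genes, in 11.97%, against 9.74%, 11.7% and 15.99%. A match is a run of letters and no measured binding site, and these shares describe the starts without a test.

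Among the printed starts, Ddit4l and Efnb2 had Klf4 peaks. Ddit4l, a relative of the stress-induced mTOR inhibitor Ddit4, lay in a region of 2314 bp with an H3K27ac fold of 10.9 and 7.03 in the mitotic libraries. Klf4 peaks overlapped it in mitotic libraries 1 and 3, at a fold of 5.71 and 3.50, and in all 3 asynchronous libraries, at 6.55, 3.73 and 12.7. Their centres fell from 28 bp before to 133 bp after the start. Efnb2, which encodes the membrane ligand ephrin-B2, had H3K27ac folds of 8.72 and 6.63, with Klf4 at 3.26 in mitotic library 3 and at 6.93, 6.22 and 12.4 in the asynchronous libraries. At both genes Klf4 was thus listed in each asynchronous library, although H3K27ac was listed in no asynchronous one. Mesp2, a bHLH factor of somite formation, had H3K27ac folds of 7.66 and 8.44, and no factor list had a peak there. Sh3rf3, an E3 ubiquitin ligase with SH3 domains, had 9.30 and 11.6, and Slc22a14, a solute carrier, 8.14 and 12.1. Neither of them had a factor peak.

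Mitotic-only regions were intermediate in width. Their median width was 1366 bp (quartiles 953 and 1806 bp, range 257 to 19607 bp), against 1952.5 bp for kept regions and 841 bp for asynchronous-only regions. Together they covered 8.43 Mb, against 39.0 Mb and 12.6 Mb. Only 22 mitotic-only regions reached 5 kb, against 1494 kept and 11 asynchronous-only regions. Most were simple: 5050 of them, 87.4%, consisted of a single peak in each mitotic list.

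The fold of a region is the height that the authors deposited for its highest peak, a ratio of ChIP signal over background. Pairs of folds below are those of mitotic library 1 and mitotic library 2, since the asynchronous lists have no peak in these regions. Its median in mitotic-only regions was 5.47 in mitotic library 1 (quartiles 4.36 and 7.56) and 5.19 in library 2 (quartiles 4.32 and 7.21), against 6.29 and 6.05 in kept regions. The range ran from 1.87 to 42.2 in library 1 and from 1.87 to 38.9 in library 2. Ranked among all peaks of their list, mitotic-only regions had a median percentile of 61.2 and 52.6, against 71.0 and 64.8 for kept regions. Asynchronous-only regions ranked lower in their own lists, with median percentiles of 42.3 and 39.6 in the asynchronous libraries. Both mitotic libraries put the mitotic-only regions in a similar order, with a Spearman correlation of 0.778 between the folds over 5781 regions, which share their title code and the rule that chose them. A fold of at least 10 in both libraries was reached by 528 regions, 9.13%, and a fold of at least 20 by 13. At the other end, 1704 regions, 29.5%, lay below the list median in both libraries.

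**Figure D1:**
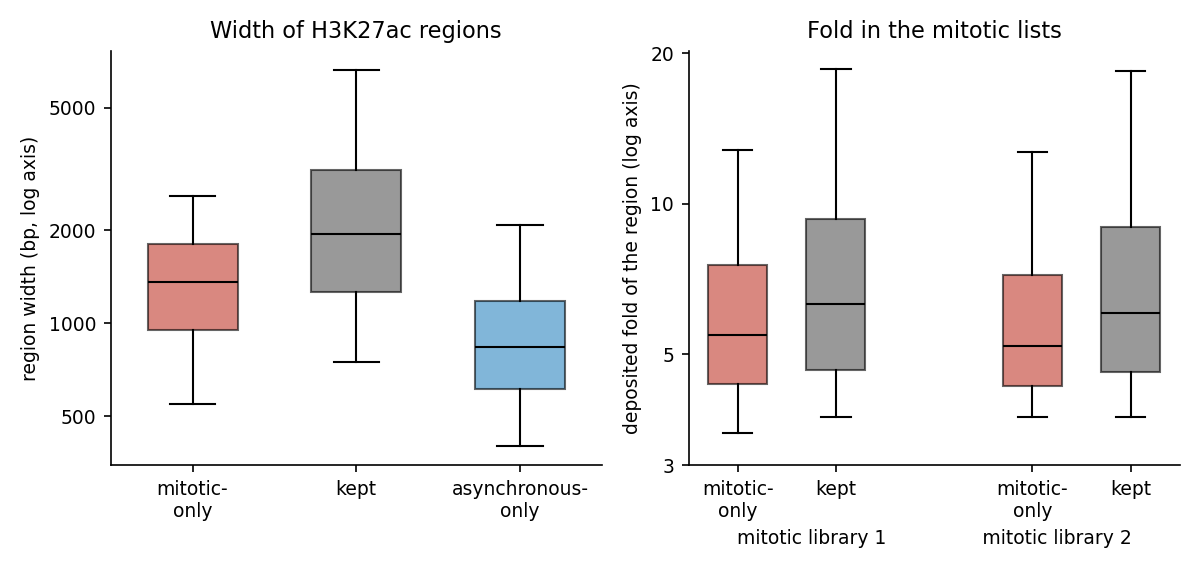
Width of the 3 classes of H3K27ac regions in bp on a log axis (left) and deposited fold of the region in each mitotic library on a log axis (right). Boxes span the quartiles with the median as a line, and whiskers run from the 5th to the 95th percentile. Mitotic-only regions had a median width of 1366 bp and median folds of 5.47 and 5.19, below those of kept regions in both libraries.

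**Figure D2:**
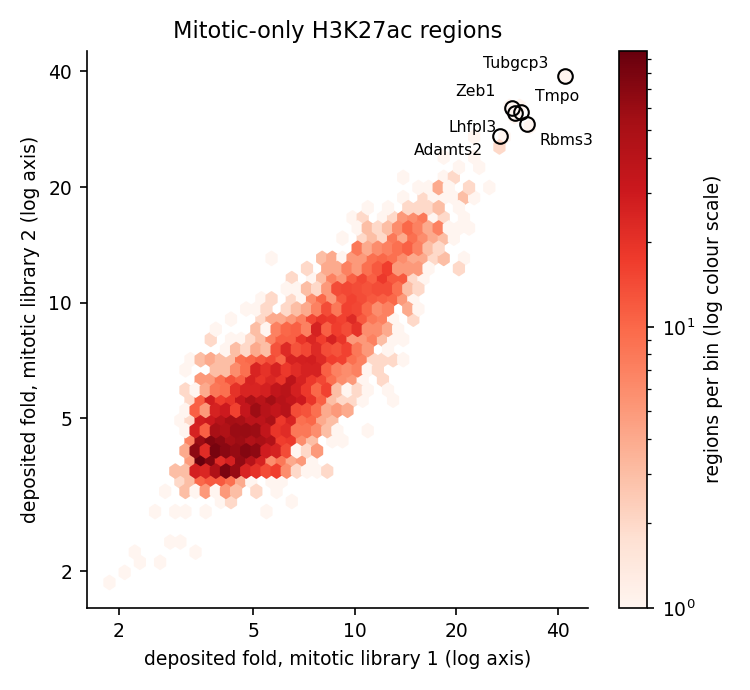
Deposited H3K27ac fold of the 5781 mitotic-only regions in mitotic library 1 (x axis) and mitotic library 2 (y axis), both on log axes, with the number of regions in a bin as colour. Circles mark the 6 regions that were strongest in both libraries, named by their nearest protein-coding gene, and the region in Tubgcp3 stood at 42.2 and 38.9.

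The region with the highest fold in both mitotic libraries lay inside Tubgcp3, which encodes a subunit of the gamma-tubulin ring complex that nucleates microtubules. It spanned chr8:12630216-12642414, 12199 bp, with folds of 42.2 and 38.9 and no asynchronous peak within 29.1 kb. Tubgcp3 had 4 further mitotic-only regions within 20 kb, so that 5 regions lay within 48.6 kb, with no asynchronous peak between them. The next was 228 kb from its nearest protein-coding gene, Tmpo, which encodes lamina-associated polypeptides of the nuclear envelope. It spanned chr10:91409721-91422338, with folds of 31.1 and 31.4, and it was not isolated: a kept region lay 7 bp away and an asynchronous peak 2.06 kb away.

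A region of 7649 bp lay 8.90 kb from Zeb1, a repressor that drives the epithelial to mesenchymal transition, with folds of 29.4 and 32.1. Inside Rbms3, which encodes an RNA-binding protein, a region of 12957 bp had folds of 32.6 and 29.1 and no kept region within 686 kb. Regions inside Lhfpl3 (29.9 and 31.1) and inside Adamts2, which encodes a protease that trims procollagen (27.04 and 27.09), were 11236 bp and 13946 bp wide. These 6 regions were among the widest as well as the strongest. The pairs of folds differed little between the libraries in each of them.

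The remaining 6 of the 12 strongest regions were narrower, at 2660 to 4429 bp. Of these, 3 lay at a gene end of Zfp61, a zinc finger gene (27.4 and 25.9), 6.00 kb from Mup20, a major urinary protein gene (26.5 and 24.8), and 1.35 kb from Eed, a core subunit of Polycomb repressive complex 2 (23.0 and 26.5). Another 2 lay by Sec11a, which encodes a catalytic subunit of signal peptidase (22.4 and 23.3), and 1.55 kb from Mfn1, a mitofusin gene (20.1 and 23.1). Of the 12 strongest regions, 2 had a factor peak in any library. These were the Rbms3 region, with a Sox2 peak in 1 mitotic library, and the Sec11a region, with a Klf4 peak in 1 library.

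The widest region was not among the strongest. It lay in Myo16, which encodes an unconventional myosin, at chr8:10178294-10197900, 19607 bp wide, with folds of 12.7 and 13.8 and no asynchronous peak within 199.97 kb. It stood in a run of 7 mitotic-only regions over 54.1 kb that began at the Myo16 start. The region at the start itself was weak, with folds of 4.94 and 4.08. The region just right of the widest one had 14.2 and 10.8. With 9 mitotic-only regions within 20 kb and no kept or asynchronous-only one, Myo16 had more of them than any other protein-coding gene. Zfhx3 (a zinc finger homeobox factor), Rbms3, Nrg1 (the growth factor neuregulin 1) and Csmd1 followed with 7 each, and Zfpm1 (the GATA cofactor Fog1) was among the genes with 6. Gene spans were 481 kb for Myo16, 682 kb for Zfhx3, 1057 kb for Rbms3, 1084 kb for Nrg1 and 1643 kb for Csmd1. Zfpm1 spanned 56.0 kb, and the median of all protein-coding genes was 17.1 kb. Of these 6 genes, Rbms3 is on chromosome 9 and the other 5 are on chromosome 8. Such runs were uncommon. Joined at gaps of up to 20 kb, the 5781 regions formed 5156 clusters, of which 4626 held 1 region and 77 held at least 3.

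Just inside the rule stood regions by Gdap1, Ogfrl1 and Dst, with a −log10 p of 5.00 in mitotic library 1 and a fold of 3.49 each. Regions by Arhgap18 and Nlrp4f lay 8 bp from an asynchronous peak and 1 by Capzb 11 bp. Just outside it stood regions by Dock4, Spry2 and Dnaja3, each in both mitotic lists and in 1 asynchronous list at a −log10 p of 5.02 and a fold of 4.01. In all, 909 regions were in both mitotic lists and 1 asynchronous list, with a median asynchronous −log10 p of 6.17.

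Most mitotic-only regions lay away from gene ends. Within 1 kb of an end of a protein-coding gene were 454 of them, 7.85% (95% Wilson interval 7.19 to 8.58%, for counting error alone, as for all such intervals here), against 48.2% of kept regions and 17.4% of asynchronous-only regions, and 23.1% of all merged regions. A further 2569, 44.4%, lay inside a gene, 911, 15.8%, outside genes within 20 kb, and 1847, 31.9%, beyond that distance. This distal share was 16.5% in kept and 24.3% in asynchronous-only regions. An annotated gene start was inside 131 of the 5631 mitotic-only regions on chromosomes with start sequences, 2.33%, against 42.2% of kept and 8.25% of asynchronous-only regions. Median width and fold hardly changed with position: regions at gene ends had median folds of 5.23 and 5.19 and distal ones 5.79 and 5.48.

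The strongest regions at gene ends, after Zfp61, were at Mybbp1a, which encodes a nucleolar Myb-binding protein (18.6 and 16.7), Tfcp2, a transcription factor of the grainyhead family (15.4 and 17.6), Muc13, a membrane mucin (16.9 and 15.1), Atp13a1, an ATPase of the endoplasmic reticulum (14.8 and 15.98), and Lrig2 (14.7 and 15.1). Other strong distal regions, besides that by Tmpo, had as nearest genes Sptbn1, a spectrin (24.7 and 19.6), Grm4, a glutamate receptor (19.8 and 21.0), Hhip, a hedgehog inhibitor (18.6 and 21.9), and Tle3, a Groucho corepressor (18.9 and 19.6). None of the 6 strongest distal regions had a factor peak.

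The nearest asynchronous H3K27ac peak lay at a median distance of 19.8 kb (quartiles 5.47 and 61.8 kb). It was within 500 bp for 263 mitotic-only regions, 4.55%, and over 50 kb away for 1732, 30.0%. A kept region was within 10 kb for 1205, 20.8%.

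Pluripotency factors were rarely listed in mitotic-only regions. A peak of Klf4, Oct4 or Sox2 in at least 1 of the 12 stem cell libraries overlapped 284 of them, 4.91% (95% Wilson interval 4.38 to 5.50%), against 62.1% of kept and 39.7% of asynchronous-only regions, with 32.5% over all merged regions. Klf4 was in 236, 4.08%, against 59.5% and 33.8% (29.5% of all merged regions). Oct4 was in 50, 0.865%, against 12.5% and 7.30% (6.03% of all merged regions). Sox2 was in 35, 0.605%, against 11.7% and 8.82% (6.29% of all merged regions). The other 5497 regions, 95.1%, had no factor peak in any library, while 21 had peaks of 2 factors and 8 of all 3.

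Counted per Mb of region in each library, Klf4 peaks in mitotic-only regions numbered 6.29, 2.73 and 5.22 in the mitotic libraries and 7.95, 18.3 and 14.9 in the asynchronous ones. In kept regions the same libraries gave 88.4, 58.4 and 110.6 in mitotic cells and 137.7, 236.5 and 183.7 in asynchronous cells. The highest value in mitotic-only regions was below the lowest in kept regions. Averaged over the 6 libraries, Klf4 had 9.23 peaks per Mb in mitotic-only regions against 135.9 in kept regions, a difference of −126.6 and a ratio of 14.7, lower in 6 of 6 libraries (exact two-sided sign-flip permutation test, p = 0.03125, the smallest that 6 pairs can give, and 0.09375 with Benjamini-Hochberg adjustment over 6 comparisons). Against asynchronous-only regions, with 114.4, the difference was −105.2, lower in 6 of 6 libraries, with the same exact p of 0.03125 and adjusted 0.09375. Neither passed the threshold of 0.05 after adjustment. With H3K27ac lists of equal length the means were 14.8 in mitotic-only and 140.9 in kept regions, and with Klf4 peaks at −log10 q of at least 5 they were 3.84 and 67.8.

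Oct4 had 0.830 and 4.15 peaks per Mb of mitotic-only region in the mitotic libraries and 2.97 in the asynchronous one, against 14.2, 37.0 and 32.0 in kept regions. Sox2 had 3.20 and 0.949 in the mitotic libraries and 1.19 in the asynchronous one, against 37.7, 20.5 and 28.0 in kept regions. Mitotic-only regions averaged 2.65 for Oct4, against 27.7 in kept and 32.8 in asynchronous-only regions, and 1.78 for Sox2, against 28.7 and 39.1. All 3 libraries of each factor were lower in mitotic-only regions. With regions chosen without mitotic H3K27ac library 2, the means in mitotic-only regions were 4.28 for Oct4, against 28.5 in kept regions, and 3.13 for Sox2, against 29.9. Without mitotic H3K27ac library 1 Sox2 had 3.07, against 30.2, and without mitotic Sox2 library 1 it had 1.07, against 24.2. In the 4 comparisons with all libraries, of Oct4 and of Sox2 against kept and asynchronous-only regions, the exact sign-flip permutation p was 0.25 each. That is the smallest that 3 libraries allow.

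**Figure D3:**
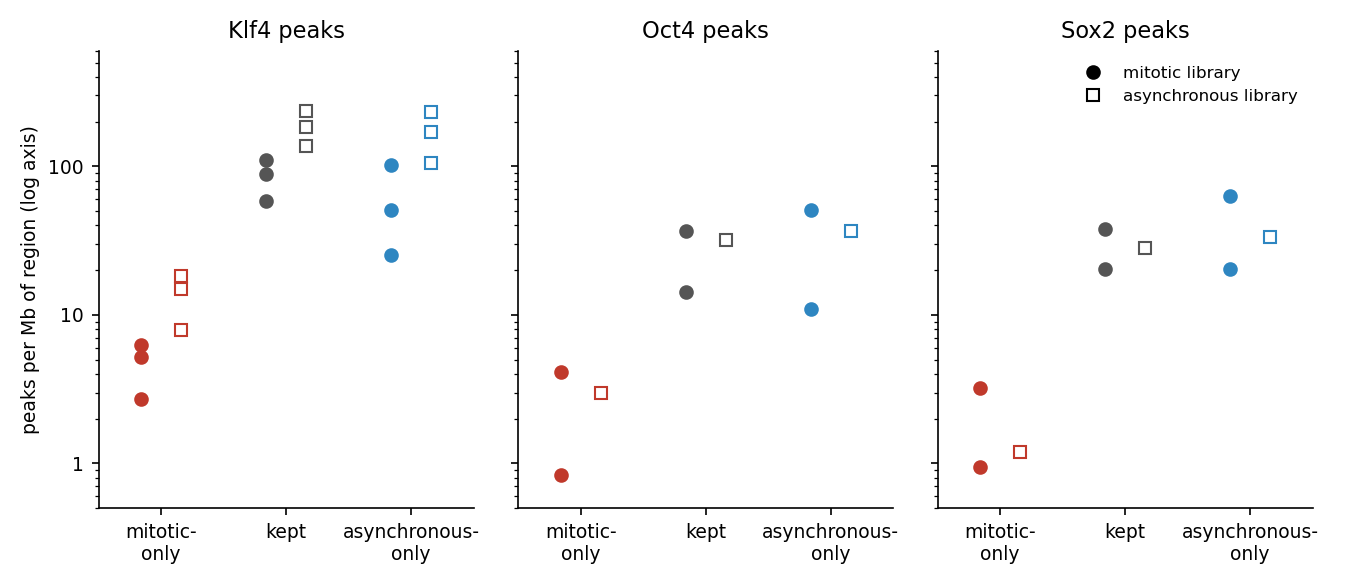
Peaks per Mb of region on a log axis for Klf4, Oct4 and Sox2 in mitotic-only, kept and asynchronous-only H3K27ac regions. Each filled circle is a mitotic library and each open square an asynchronous one. For each factor all libraries lay lower in mitotic-only regions than any library did in kept regions, with a mean of 9.23 against 135.9 for Klf4.

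Factor peaks were few in mitotic-only regions of every H3K27ac strength. Among mitotic-only regions in the weakest of 5 groups, made by mean fold percentile over the regions in both mitotic lists, 5.26% had a factor peak, against 56.5% of kept regions in the same group. In the strongest group the shares were 4.04% and 73.9%, and in the 3 groups between them 4.56% to 5.60%, against 54.97% to 66.9%. By position the shares differed more. Of mitotic-only regions near a gene end 63, 13.9%, had a factor peak, while the share was 4.79% inside genes, 4.72% outside genes within 20 kb and 2.98% in distal regions. Kept regions had 69.5%, 59.4%, 60.2% and 45.6% at the same positions, and asynchronous-only regions had 46.9%, 35.9%, 36.8% and 43.0%. No test was made of these shares, since a region has no replicate.

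The states in which a factor was listed were counted next. Of the 236 mitotic-only regions with Klf4, 73 had it in both states, 18 in mitotic libraries alone, 7.63%, and 145 in asynchronous libraries alone, 61.4%. The same shares were 3.61% and 40.4% in kept regions with Klf4 and 6.85% and 56.9% in asynchronous-only regions with Klf4. The mitotic Klf4 lists were shorter, at 3795 to 8438 peaks, against 10575 to 21307 in the asynchronous lists, and the part of list length in these counts was not tested. Of the 50 with Oct4, 13 had it in both states, 24 in mitotic libraries alone and 13 in the asynchronous library alone. Sox2 was in both states in 6, in mitotic libraries alone in 24 and in the asynchronous library alone in 5 of 35. The mitotic-alone share for Oct4 was thus 48%, against 35.0% in kept and 43.5% in asynchronous-only regions with Oct4. For Sox2 it was 68.6%, against 38.0% and 58.6% in the same order. Oct4 and Sox2 had 2 mitotic libraries against 1 asynchronous library, so the counts of the states cannot be set against each other directly.

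Taken as a share of its own peaks, each library had few in mitotic-only regions. For Klf4 the mitotic libraries had 0.921%, 0.606% and 0.521% of their peaks there (0.683% ± 0.211, SD, n = 3), and the asynchronous libraries 0.634%, 0.723% and 0.766% (0.707% ± 0.0674, SD, n = 3). The groups overlapped, and the difference of −0.0245 percentage points was smaller than the spread between replicates (exact two-sided permutation test, p = 0.9, adjusted 0.9 over 3 factors). That p could not have gone under 0.1 with 3 libraries against 3. Between the libraries with the shared code EC-EA-3702 the values were 0.521% in mitotic library 3 and 0.766% in asynchronous library 3, a difference of −0.244 with 1 library on each side and no test. With Klf4 peaks at −log10 q of at least 5 the means were 0.421% in mitotic and 0.667% in asynchronous libraries, a difference of −0.247 (exact permutation p = 0.4). Oct4 had 0.562% and 0.663% in mitotic libraries, against 0.747% in the asynchronous one, a difference of −0.135. Sox2 had 0.595% and 0.412%, against 0.335%, a difference of 0.169. Both gave an exact permutation p of 0.667 (adjusted 0.9), where 2 libraries against 1 cannot go under 0.333. These values rest on 53, 23 and 44 mitotic Klf4 peaks against 67, 154 and 126 asynchronous ones, on 7 and 35 mitotic Oct4 peaks against 25, and on 27 and 8 mitotic Sox2 peaks against 10. The list from the 10% stem cell mix had 3 peaks there. With regions chosen without mitotic H3K27ac library 2, Klf4 had mean shares of 1.03% in mitotic and 1.21% in asynchronous libraries. Oct4 then had 1.16% in mitotic and 1.28% in asynchronous libraries, and Sox2 had 0.978% in mitotic and 0.670% in asynchronous libraries.

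A small set of mitotic-only regions did hold several factors. The fullest, chr10:95456284-95457176, 23.6 kb from Mrpl42, was listed in 11 of the 12 libraries while its H3K27ac was weak, with folds of 3.83 and 3.75. Oct4 had a fold of 7.19 and 12.7 there in mitotic libraries, against 8.91 in the asynchronous one, and Sox2 11.7 and 8.95, against 8.44. Klf4 had 6.26, 4.72 and 4.89 in mitotic libraries, against 6.16 and 2.63 in asynchronous libraries 1 and 2. An asynchronous H3K27ac peak lay 165 bp away.

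In Lama4, a laminin gene, a region with H3K27ac folds of 3.78 and 3.75 was in 8 libraries. By Slc39a14, a metal ion transporter gene, 7 libraries had a peak, with Sox2 at 15.2 and 12.1 in mitotic libraries against 11.5 in the asynchronous one. All 6 Klf4 libraries had a peak in the regions by Wnt8a, a Wnt ligand, by Dvl1, which carries the Wnt signal inside the cell, and in Ppp1r13l, an inhibitor of p53. All 6 Oct4 and Sox2 libraries had a peak in Gm20385, and 6 of the 12 factor libraries had 1 in each of Mdm2 and Tnrc6b. Of these 9 regions, 6 lay within 210 bp of an asynchronous H3K27ac peak.

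Factor peaks that were themselves restricted to mitosis were scarce. A single region, 27.6 kb from Pmepa1 and with H3K27ac folds of 10.2 and 6.34, had Klf4 in at least 2 mitotic libraries (4.72 in library 2 and 3.42 in library 3) and in no asynchronous one. The reverse, Klf4 in at least 2 asynchronous and no mitotic library, was found in 37 regions. For Sox2 no region had a peak in both mitotic libraries and none in the asynchronous one. Regions with Oct4 in all 3 libraries numbered 4, and those with Sox2 in all 3 numbered 5.

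Protein-coding genes with a mitotic-only region within 20 kb numbered 4641 of 21896, 21.2%, and 500, 2.28%, had 1 within 1 kb of a gene end. Most of these genes had other H3K27ac as well: 3301 of the 4641, 71.1%, had a kept region within 20 kb, against 56.3% of all protein-coding genes. Neither a kept nor an asynchronous-only region was within 20 kb of 884 of the 4641, while this held for 7275 of all 21896 protein-coding genes. Gene length moved with the count. Genes with a mitotic-only region had a median length of 31.2 kb, against 17.1 kb for all, and the share with such a region was 9.77%, 15.8%, 19.9%, 24.2% and 36.3% in 5 equal groups of genes by length, shortest to longest. The part of length in the shares of the gene lists given next was not tested. The lists are described by counts, with no test.

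Of 20 regulators of germ layer formation, 8, or 40%, had a mitotic-only region within 20 kb, where 21.2% of all genes did. Only 5 of the 20 had a kept region within 20 kb. Regions lay inside Gata4, a factor of endoderm and heart (folds 6.40 and 5.48), inside Gata6, its partner in primitive endoderm (5.52 and 4.04), inside Wnt3, the ligand that starts gastrulation (3.56 and 4.61), 1.16 kb from Sox1, a neural factor (4.32 and 3.58, with Klf4 in 3 libraries), 7.86 kb from Hand1 (4.65 and 4.32), 11.9 kb from Eomes (4.38 and 6.47), 13.2 kb from Cdx4 (4.94 and 6.34) and 17.0 kb from Mesp1, at the start of Mesp2 described above. Apart from the region at Mesp2, none of these exceeded a fold of 6.47.

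In the list of p53 targets and immediate early genes, 8 of 21 genes, 38.1%, had a mitotic-only region, 3 of them at a gene end, and 20 of the 21 also had a kept one. The strongest was 0.761 kb from Trp53inp1, a stress protein that p53 induces (13.08 and 12.97). The same region lay 12.7 kb from Ccne2, a cyclin of the G1 to S transition. By Pmaip1, which encodes the p53 target Noxa that promotes apoptosis, a region with folds of 8.64 and 7.88 had Klf4 in 5 libraries. Mdm2, the ligase that degrades p53, had 3 such regions, the strongest with 7.85 and 5.76. Gadd45a, a DNA damage gene, had 1 at 0.230 kb (5.18 and 3.75), which lay 0.211 kb from an asynchronous peak. Sesn2 had 2, the nearest at 0.245 kb and the strongest at 18.2 kb. The strongest regions by Sesn2, Fos, Fosb and Bbc3 had folds of 4.65 to 5.52 in library 1 and 4.90 to 6.19 in library 2.

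Among Polycomb and other chromatin regulators 14 of 40, 35.0%, had a mitotic-only region, and 38 had a kept one. Besides Eed, they included the histone demethylase genes Kdm4a (15.1 and 14.6) and Kdm4c (14.4 and 13.5), with regions at 12.4 and 10.4 kb, Crebbp, which encodes an acetyltransferase that makes H3K27ac (10.4 and 10.7), and Dnmt1, the maintenance DNA methyltransferase (9.01 and 10.7). The other acetyltransferase gene, Ep300, had a narrow weak region (516 bp, 4.65 and 3.75). Suz12, a partner of Eed, had 4.65 and 5.48.

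All 30 genes of the mitotic machinery had a kept region within 20 kb, and 8, 26.7%, also had a mitotic-only one. By Mad2l1, a spindle checkpoint gene, it was 7.39 kb away (11.05 and 10.95), and by Espl1, which encodes separase, 0.247 kb away (7.85 and 5.19), 159 bp from an asynchronous peak. Regions inside Cdk1, the main mitotic kinase (5.38 and 3.76), Bub1b, a checkpoint kinase gene (4.85 and 5.34), Kif11, a spindle motor gene (5.52 and 3.75), and Tpx2, a spindle assembly factor gene (4.36 and 5.34), were weak. The G1 and S phase list (5 of 23, 21.7%) and the tubulin and microtubule list (4 of 19, 21.1%) were at the background of all genes. In the G1 and S phase list the regions inside Mcm2 (7.56 and 8.65) and Mcm5 (5.35 and 5.76), subunits of the replicative helicase, and in the tubulin list 1 at 11.7 kb from Stmn1 (4.07 and 6.92), are examples.

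Naive pluripotency genes were at the low end, with 2 of 20, 10.0%, although 19 of the 20 had a kept region. The region inside the span of Zfp42, a marker of naive cells, was weak (3.71 and 3.40), and that nearest in height to the strong ones lay 17.2 kb from Gdf3, inside Apobec1 (8.48 and 9.22). Nanog, Pou5f1, Sox2, Klf4 and Esrrb had no mitotic-only region within 20 kb. Primed pluripotency genes were at the background (3 of 14, 21.4%, among them Sall2 with 5.90 and 5.90 and Cdh2 with 4.36 and 3.94). In the epithelial to mesenchymal transition list, 5 of 15, 33.3%, had a mitotic-only region: Zeb1, Zeb2, Cdh2, Grhl2 and Tgfb1.

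**Figure D4:**
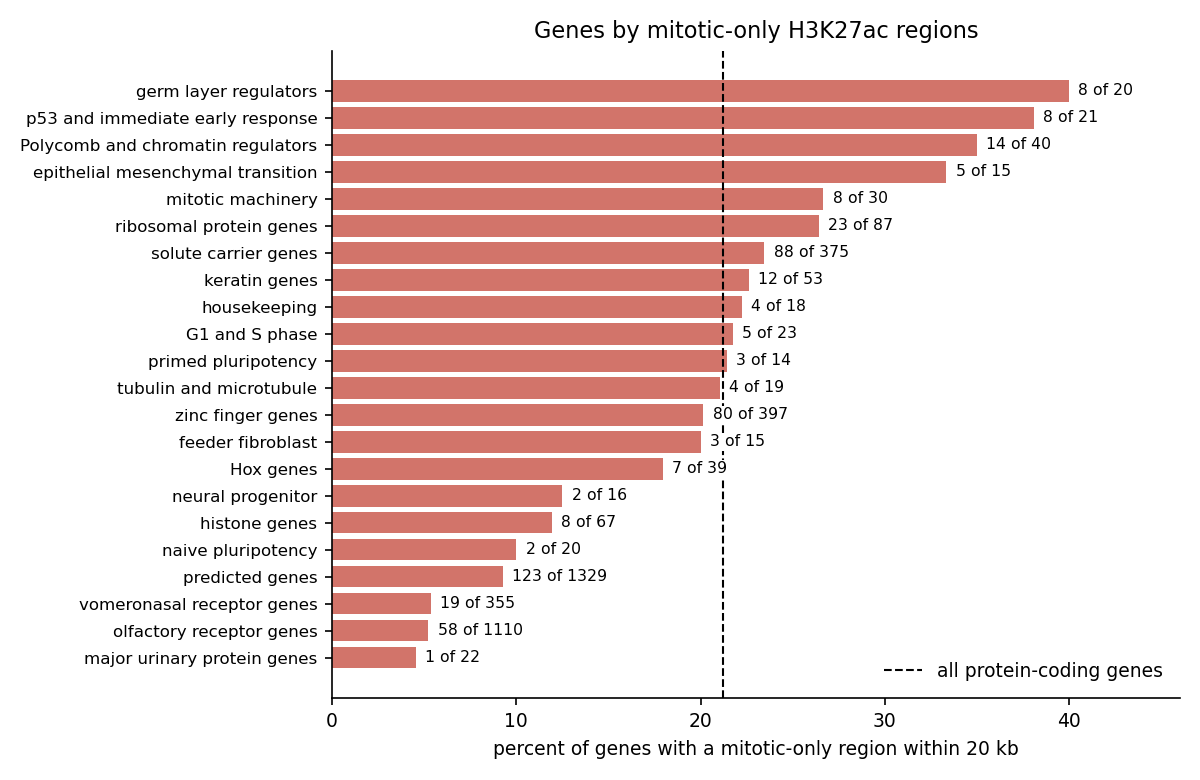
Percent of the genes of each list with a mitotic-only H3K27ac region within 20 kb, with the number of genes beside each bar and the share of all protein-coding genes, 21.2%, as a dashed line. Germ layer regulators stood highest of these lists at 40% and major urinary protein genes lowest at 4.55%.

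Markers of other cells that the cultures could hold were checked by the same count. Of 6 stem cell markers, 1 had a mitotic-only and all 6 a kept region within 20 kb. Of 6 neural progenitor markers, 1 had a mitotic-only and 3 a kept region. Among 6 fibroblast markers, which would mark feeder cells, 0 had a mitotic-only and 1 a kept region. Of 5 trophoblast markers 3 had a mitotic-only and 2 a kept region, and of 5 primitive endoderm markers 2 and 1. Hand1 and Eomes among the trophoblast markers, Gata4 and Gata6 among the primitive endoderm markers and Sox1 among the neural ones are also in the germ layer list, so these counts are not separate from it. The wider lists gave 2 of 16 neural progenitor genes, 12.5%, with Ncam1 at 7.85 and 6.92, and 3 of 15 feeder fibroblast genes, 20.0%, with Col5a1 at 6.11 and 5.76.

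Large gene families spread around the background. Ribosomal protein genes had 23 of 87, 26.4%, and the strongest region lay 8.72 kb from Rps21 (13.5 and 14.5). Solute carrier genes had 88 of 375, 23.5%, with 20.1 and 19.0 by Slc7a1, an amino acid transporter gene. Keratin genes had 12 of 53, 22.6%, of which Krt75 had 16.7 and 15.5 at 14.6 kb, and only 9 of the 53 had a kept region. Housekeeping genes had 4 of 18, 22.2%, with 7.27 and 8.94 by Rplp0, and zinc finger genes with symbol Zfp 80 of 397, 20.2%. Hox genes had 7 of 39, 17.9%, which came from 2 regions, 1 of them by Hoxc6 (4.65 and 5.76). Histone genes had 8 of 67, 11.9%, although 61 had a kept region, and the strongest lay by H1f7, a testis linker histone gene (10.8 and 11.2). Predicted genes had 123 of 1329, 9.26%.

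Families of chemosensory receptor genes, which are silent in most tissues, were low. A mitotic-only region was found for 58 of 1110 olfactory receptor genes, 5.23%, and 19 of 355 vomeronasal receptor genes, 5.35%. Major urinary protein genes were low as well, with 1 of 22, 4.55%. Some of those regions were strong. The Mup20 region is 1 example, and others lay 14.1 kb from Olfr1467 (17.8 and 15.1), 2.40 kb from Olfr913 (14.5 and 16.9) and 0.0640 kb from Vmn1r88 (11.9 and 9.22). None of these 4 had a factor peak.

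Of 1005 miRNA hairpins, 5, 0.498%, lay in mitotic-only regions, against 93, 9.25%, in kept and 22, 2.19%, in asynchronous-only regions. These are shares of all hairpins, and the classes differ in size, at 8.43 Mb, 39.0 Mb and 12.6 Mb in the same order. The 10 mature miRNAs of the 5 hairpins in mitotic-only regions had 10 different seeds. Those of Mir137, which is known for its role in neural differentiation, and of Mir5622, which lies in the spindle gene Tpx2, are shown because the gene or role beside them is known, 5′ to 3′ from RefSeq, with the seed (bases 2 to 8) in capitals.
mmu-miR-137-3p, chr3:118433901-118433923, plus strand: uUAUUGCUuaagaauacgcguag
mmu-miR-137-5p, chr3:118433865-118433887, plus strand: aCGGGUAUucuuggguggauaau
mmu-miR-5622-3p, chr2:152865105-152865126, plus strand: cUUAGCUGgguagugguggugc
mmu-miR-5622-5p, chr2:152865067-152865088, plus strand: uUCACCACacccagcuuaaaga
The region at Mir137 had H3K27ac folds of 4.93 and 3.75 and lay 127 kb from Dpyd, the nearest protein-coding gene. The region at Mir5622, inside Tpx2, had folds of 4.36 and 5.34.

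Chromosome 8 held more mitotic-only regions than its share. It carried 459 of them, 7.94%, against 5.81% of kept, 3.48% of asynchronous-only and 5.44% of all merged regions. Of the regions there that were specific to a state, 50.7% were mitotic-only, while on the other autosomes that share ran from 23.3% to 34.0%. On the X chromosome it was 20.6%, and on the Y chromosome, with 15 mitotic-only and 10 asynchronous-only regions, 60%. The same chromosome took a larger part of whole peak lists. It held 6.36% and 6.56% of the H3K27ac peaks of the mitotic libraries, against 4.82% and 4.85% of the asynchronous ones. For Klf4 it held 9.30% and 9.72% in mitotic libraries 1 and 2 and 6.36% in mitotic library 3, against 5.12%, 5.42% and 6.93% in the asynchronous libraries.

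Mitotic Klf4 libraries 1 and 2 shared the title code EC-DG-3514 with both mitotic H3K27ac libraries. Mitotic library 3 and asynchronous library 3 shared the code EC-EA-3702, and within that code the mitotic value was the lower, 6.36% against 6.93%. The part of this shift in the H3K27ac rule was not tested, and state and title code cannot be told apart for that mark. Mitotic-only regions on chromosome 8 resembled the rest in width (median 1344 bp, against 1367.5 bp on all other chromosomes) and in fold (5.199 and 5.063, against 5.47 and 5.19). They were somewhat more often near a gene end, 10.9% against 7.59%, and 32, 6.97%, had a factor peak, against 4.74%. They lay along the whole chromosome, with 114, 58, 148 and 139 in its 4 successive stretches of equal length. Without chromosome 8, an alternative chosen after seeing the data, 5322 mitotic-only regions and 4296 genes within 20 kb were left, and the Klf4 difference from kept regions was −125.5 peaks per Mb. The regions in Tubgcp3 and Myo16 and the region counts of Myo16, Zfhx3, Nrg1 and Csmd1, which are 4 of the 5 genes with 7 or more of them, rest on this chromosome. So does the region count of Zfpm1. Other named regions on chromosome 8 include those at Efnb2, Atp13a1, Hhip, Sox1, Zfp42 and Mcm5.

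**Figure D5:**
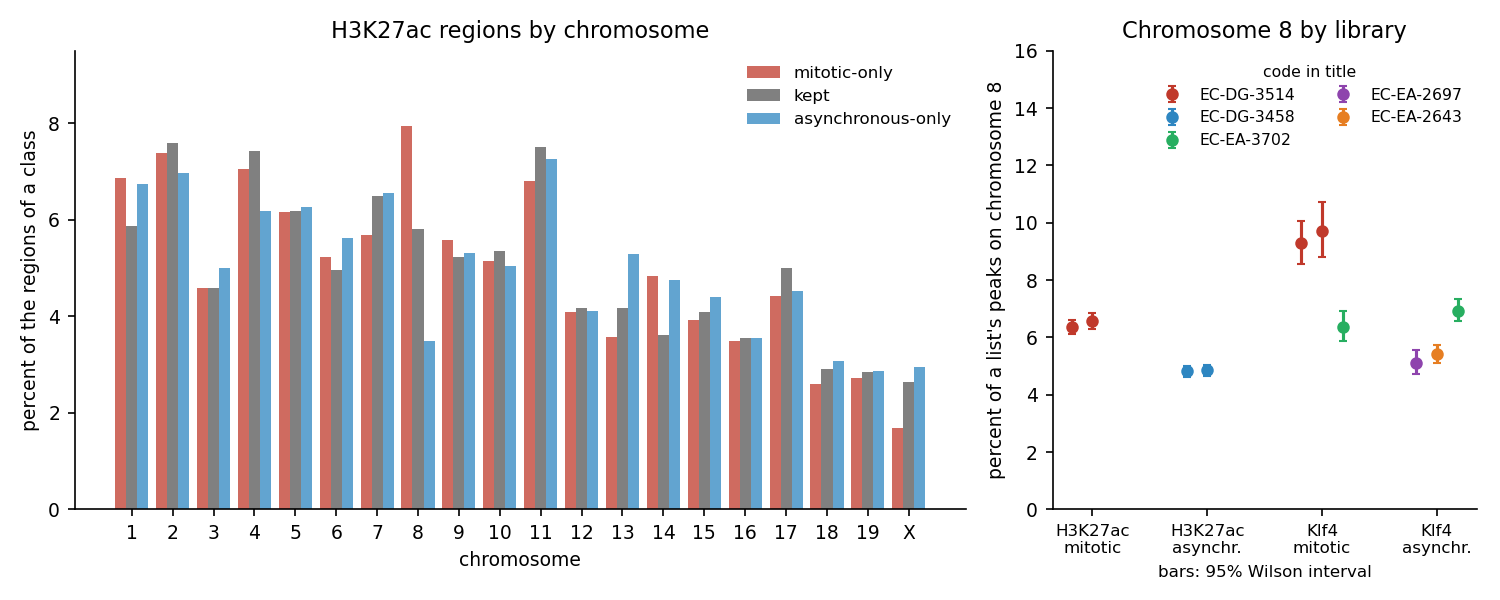
Percent of the mitotic-only, kept and asynchronous-only H3K27ac regions on each chromosome (left), and percent of the peaks of each H3K27ac and Klf4 list that lie on chromosome 8, coloured by the code in its title, with 95% Wilson intervals for counting error (right). Mitotic-only regions reach 7.94% on chromosome 8, and the 4 libraries with the code EC-DG-3514 lie at 6.36% to 9.72%.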

How the data were processed

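Peak lists of 17 ChIP-seq libraries were analysed, 4 of them for H3K27ac, and no read totals were used. Per the submitters' processing notes, cutadapt 1.8.1, Bowtie2 2.2.5, MACS2 2.1.1 and deepTools 2.3.6 were used with the mm10 build; settings and controls are not given in the sources used here. The authors called peaks per library and deposited for each peak a fold, which is a ratio over background, and −log10 values of p and q; the browser score the authors deposited beside them was not used. A region takes the highest fold and −log10 p among its peaks of a list.

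Here, peaks of the 4 H3K27ac lists were merged at an overlap of at least 1 bp, and each region was set against factor peaks (at least 1 bp) and against 21896 protein-coding gene spans of RefSeq GRCm38.p6. The start table held 32851 starts and lacked chromosome 18, so shares of starts leave that chromosome out. The members and lists were chosen with earlier results of these data known. Regions named in the text are the 12 strongest by mean fold percentile, the 6 widest, the 6 strongest at gene ends and in distal sequence, the 6 genes with most regions, the 2 strongest per gene list and those with defined factor patterns; other genes of the lists and the 9 regions with peaks in at least 6 factor libraries were picked after their values were seen. Exact permutation tests over libraries were run with Python 3.11.15, numpy 2.4.6, pandas 2.3.3 and scipy 1.17.1, and were tested on simulated data. Groups follow the labels; Klf4 replicate numbers follow accession order and pair no samples. The 7 inputs had no list. Alternatives changed the overlap, the q limit, the distances, list length and single libraries. Some named regions are not reported here.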

Additional observations from a re-analysis of the deposited data

Results flagged for a closer look

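The share of a library's own peaks that fell in mitotic-only H3K27ac regions moved in opposite directions for Oct4 and Sox2. For Oct4 both mitotic libraries, at 0.562% and 0.663%, were below the asynchronous library at 0.747%, a difference of −0.135 percentage points. For Sox2 both mitotic libraries, at 0.595% and 0.412%, were above the asynchronous library at 0.335%, a difference of 0.169. With H3K27ac lists of equal length the differences were −0.00835 for Oct4 and 0.184 for Sox2. With H3K27ac peaks at −log10 q of at least 5 they were −0.0625 and 0.0459. A q above 0.05 was held by 118 of 1246 peaks in Oct4 mitotic list 1. The same was true of 436 of 1940 in Sox2 mitotic list 2 and 95 of 2986 in the asynchronous Sox2 list. The difference between the 2 factors was not tested. The counts behind it were 7 and 35 mitotic against 25 asynchronous Oct4 peaks, and 27 and 8 mitotic against 10 asynchronous Sox2 peaks.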

How the results depend on the processing

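The number of mitotic-only regions, 5781, ran from 6162 to 11114 when any of the 4 H3K27ac libraries was left out, and the highest value came without mitotic library 2. With a library left out the rule was looser, since it asked for presence or absence in the remaining list of that state alone. It ran from 4273 (−log10 q of at least 5) to 6670 (no chaining of peaks) under the other alternatives. The gene end share of 7.85% became 5.93% at 0.5 kb, 21.2% at 5 kb, 8.999% with H3K27ac lists of equal length, 7.11% when peaks up to 500 bp apart were joined, and 7.98% to 8.54% with a library left out. The 4641 genes became 7308 within 50 kb. Under the looser rule with a library left out they became 4979 to 7408, the highest again without mitotic library 2. For Klf4 the mitotic minus asynchronous difference in the share of own peaks changed sign without asynchronous library 3 (0.0047), mitotic library 2 (0.0139) or mitotic library 3 (0.0562), within a range of −0.180 to 0.0562 over left-out libraries. It was −0.244 within the code EC-EA-3702 and −0.247 with Klf4 peaks at −log10 q of at least 5. Over left-out libraries Oct4 ran from −0.229 to −0.0369 and Sox2 from 0.0775 to 0.308. Over all alternatives Oct4 ran from −0.401 to −0.00835 and Sox2 from 0.0459 to 0.308. The 74 alternatives for peaks per Mb kept their direction, and Klf4 against kept regions ran from −140.8 to −108.3 with a library left out. The levels behind these differences moved more, and mean Klf4 peaks per Mb of mitotic-only region ran from 7.43 to 13.8 with a library left out. The lowest came without asynchronous Klf4 library 2, the longest Klf4 list at 21307 peaks, and the highest without mitotic H3K27ac library 2. The cause of these shifts in level was not tested. For Oct4 and Sox2 no share difference could be had without the single asynchronous library. No paired analysis was possible because, between the states, the H3K27ac regions come from overlaps of lists and no test, Oct4 and Sox2 have 1 asynchronous library each, and the Klf4 numbers follow accession order; the sign-flip tests pair region classes within a library. With 7 to 53 peaks per mitotic factor library in these regions, counting error limits each share.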
